A study of Mus musculus with 1824 samples.

Results

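The 7 genes described here are Klf1, Nfe2, Zfpm1, Cited4, Trim10, Hemgn and Bcl11a, a set of regulators tied to the red cell lineage. They were chosen by name, as the rows of the deposited read-count table whose Ensembl identifier maps to one of these symbols, and make up 7 of the 55487 gene identifiers in the table. The samples were single cells from mouse embryos at embryonic day E7.5 or E8.5, each sorted into a well of a 96-well plate and read out by a full-length RNA-seq protocol without molecular identifiers. Per the study's methods, embryonic stem cells of one line lacking Tet1, Tet2 and Tet3 (Tet-TKO), marked by a CAG-driven H2B-tdTomato transgene, were injected into C57BL/6J host blastocysts, transferred to CD1 recipients, and recovered as chimaeric embryos that were pooled before dissociation. The labels give the strain as CD1. They do not state for each cell whether it was knockout or host, or which KDR and CD41 gate it came from, so no comparison of knockout with host cells was made. Of 1824 cells on 19 plates, 1634 passed the filters of at least 100000 reads, at most 10% mitochondrial reads and at most 20% ribosomal protein reads, which was 89.5% of the E7.5 and 89.7% of the E8.5 cells. Kept cells held 100941 to 6162793 reads, with a median of 678018. The E7.5 cells came from 11 plates. Of these, 4 are each named as 1 embryo of a Tet-TKO chimaera, 1 is named as a Tet chimaera plate and 6 are numbered by lane. The 8 E8.5 plates name no embryo. The methods describe pooled embryos, while the 4 names give 1 embryo each. Each stage is therefore 1 sample here. No test was made between groups of cells, and the 95% intervals given cover counting error only.

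Primitive red cells are the first blood cells of the mouse embryo. They form in the yolk sac and carry embryonic haemoglobins before the definitive lineages appear. Klf1 is a zinc-finger factor that binds CACCC-type elements and activates globin and red cell membrane genes, and Nfe2 encodes the p45 subunit of a dimer with small Maf proteins that acts at globin regulatory regions and in megakaryocytes. Zfpm1 (also called FOG1) is a cofactor of GATA1, Cited4 belongs to a family of CBP/p300-binding transactivators, Trim10 is a RING-finger protein with a role in late red cell maturation, Hemgn is a nuclear protein of blood cells, and Bcl11a is a zinc-finger repressor that silences embryonic and foetal globin genes in later red cells and is needed for lymphoid development.

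The cells were ordered by the summed level, in CPM (counts per megaread, that is, scaled to the cell's total reads), of the embryonic globin genes Hba-x, Hbb-bh1 and Hbb-y, referred to as globin. Cells with at least 10000 CPM of globin were called globin-high (55 cells or 5.82% of the E7.5 cells, and 24.2% of those of E8.5). Cells under 100 CPM were called globin-low (88.5% and 63.9%). The globin-high cells were not spread over the plates. At E7.5, 53 of 55 lay on lane plate 1, and at E8.5 plates 1 and 2 held 74 and 80, with 9 on plate 5, 3 on plate 6 and 1 on plate 7. On 5 plates, E8.5 plates 1 and 2 and E7.5 lane plates 1, 4 and 5, no cell lacked a globin read, and the lowest cell stood between 5.16 and 32.7 CPM, whereas 3 cells in all from the 4 named embryos, which gave 88 to 94 cells each, had any globin read. The part of such globin reads in the results was not tested.

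Klf1 (ENSMUSG00000054191) lies on chromosome 8, 84901928 to 84905291, plus strand, with 1.53 kb of annotated exons in GRCm38. Trim10 (ENSMUSG00000073400) lies on chromosome 17, 36869574 to 36877833, plus strand, with 2.245 kb. Hemgn (ENSMUSG00000028332) lies on chromosome 4, 46393989 to 46413506, minus strand, with 2.511 kb. These 3 genes were read in most E8.5 cells only at 10000 CPM of globin or above, while Cited4 (ENSMUSG00000070803, chromosome 4, 120666572 to 120667820, plus strand, 1 exon block of 1.249 kb) was already abundant in part of the cells below that level. The bases upstream of the RefSeq start of these 4 genes (GRCm38.p6, 5′ to 3′ on the gene's strand) are shown for this contrast, at chr8:84901732-84901927 (plus) for Klf1, chr17:36869324-36869573 (plus) for Trim10, chr4:46404237-46404433 (minus) for Hemgn and chr4:120666313-120666562 (plus) for Cited4. Capitals mark the letters of a GATA-type word (GATA with adenine or thymine before it and a purine after it), a CACCC-type word (CCNCNCCC) or the NF-E2-type word TGANTCA, read on both strands, and bases inside annotated exons were left out. The RefSeq start of Hemgn lies inside the annotated gene, downstream of its outermost start.
Klf1: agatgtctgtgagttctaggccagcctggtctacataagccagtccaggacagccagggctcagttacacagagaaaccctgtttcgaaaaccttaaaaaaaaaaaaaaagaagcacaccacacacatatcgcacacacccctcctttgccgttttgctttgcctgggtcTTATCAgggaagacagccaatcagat
Trim10: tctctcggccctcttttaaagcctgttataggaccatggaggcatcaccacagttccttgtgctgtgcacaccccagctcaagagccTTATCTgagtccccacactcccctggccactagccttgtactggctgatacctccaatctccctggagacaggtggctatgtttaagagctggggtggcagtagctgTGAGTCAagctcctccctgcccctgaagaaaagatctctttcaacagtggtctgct
Hemgn: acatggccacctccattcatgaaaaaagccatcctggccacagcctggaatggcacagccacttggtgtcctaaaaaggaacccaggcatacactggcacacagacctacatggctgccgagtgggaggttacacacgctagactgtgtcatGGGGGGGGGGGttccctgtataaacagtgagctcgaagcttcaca
Cited4: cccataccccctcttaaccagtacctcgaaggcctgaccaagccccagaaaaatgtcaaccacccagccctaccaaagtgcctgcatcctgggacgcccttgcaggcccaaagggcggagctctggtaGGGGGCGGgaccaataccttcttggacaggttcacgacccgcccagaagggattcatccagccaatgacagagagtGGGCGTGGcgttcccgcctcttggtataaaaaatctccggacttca
The windows searched were 250 bases long, and the left-out bases were included in the search. Klf1 held 1 GATA-type word, at -80 to -75 from the start. Trim10 held 1 at -163 to -158, and a TGANTCA word at -56 to -50. Hemgn held 1 GATA-type word among the bases not printed, and its run of G gave 4 overlapping matches to the CACCC-type word. Cited4 held no GATA-type word and 2 CACCC-type words. Of all 32851 promoter windows of this length, 26.5% held a GATA-type word, 45.9% a CACCC-type word and 6.75% the TGANTCA word. Zfpm1 and Bcl11a had 4 and 8 CACCC-type matches, some of the latter overlapping, and no GATA-type word. These are matches of letters and say nothing of what binds there.

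Pooled over each plate, the 6 genes other than Bcl11a were highest on the plates that held the globin-high cells. At E7.5, Klf1 ranged from 0 to 214.1 CPM over 11 plates with a median of 1.01, the highest being lane plate 1 and the next, lane plate 4, 12.97 CPM. At E8.5 it ranged from 0.0336 to 487.3 CPM over 8 plates with a median of 6.60. Klf1 was thus concentrated on 1 plate at E7.5. Trim10 and Hemgn had no read on 7 and 8 of the 11 E7.5 plates, and reached 43.7 and 32.8 CPM on lane plate 1. At E8.5 the highest plate had 239.1 CPM of Trim10 and 149.6 CPM of Hemgn, against medians of 1.83 and 1.14 CPM. Nfe2 and Zfpm1 were less confined. The plate median of Nfe2 was 0.648 CPM for E7.5 and 59.6 CPM for E8.5, with highest plates of 137.8 and 334.8 CPM. Zfpm1 was read on every plate, with 2.94 to 28.8 CPM on those of E7.5 and 3.32 to 58.2 CPM on those of E8.5. For Cited4 the ranges were 0.315 to 370.4 and 0.0505 to 803.3 CPM. Bcl11a had a plate median of 10.95 CPM in the earlier embryos (3.62 to 32.7, the highest again on lane plate 1) and 0.403 CPM in the later ones, where plate 5 stood apart at 25.5 CPM and 2 plates had no read.

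**Figure D1:**
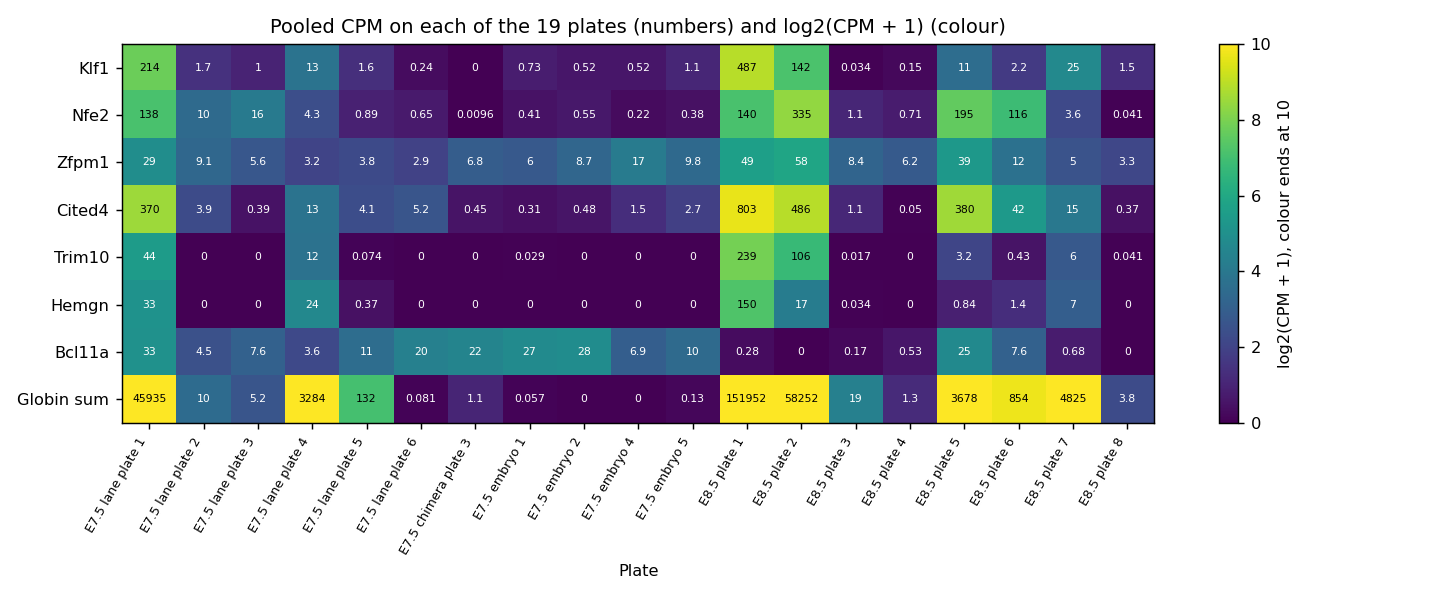
Heat map of the pooled level of each of the 7 genes and of the globin sum (rows) on each of the 19 plates (columns, E7.5 then E8.5), with the CPM printed in each cell and log2(CPM + 1) as colour, ending at 10. Klf1, Trim10 and Hemgn reach 214.1, 43.7 and 32.8 CPM on E7.5 lane plate 1 and are at or near 0 on most other E7.5 plates, while Bcl11a is highest at 32.7 CPM at E7.5.

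In the 4 named E7.5 embryos, with their cells pooled, the red cell regulators were rare. After each cell was thinned to 100000 reads, Klf1 was read in 2.74% of cells, Nfe2 in 1.37% and Cited4 in 3.56%. Trim10 and Hemgn were read in none of these thinned cells, which allows a share of up to 0.822%. Zfpm1 and Bcl11a were read in 36.2% and 37.3% of the same cells. The pooled levels were 0.672 CPM for Klf1, 10.04 CPM for Zfpm1 and 19.99 CPM for Bcl11a.

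The first comparison asked how far each gene differed between globin-high and globin-low cells of the same stage. At E8.5, 6 of the 7 genes were at least 2-fold higher in globin-high cells, and 5.04% of the 9804 genes that reached 10 CPM in one of the groups passed the same call. Ratios were taken on log2(CPM + 1), and the median over those 9804 genes was -0.34. Among them, Trim10 ranked 11, Klf1 12, Hemgn 19, and Cited4 25 by ratio, with Nfe2 and Zfpm1 further down. Bcl11a was at least 2-fold lower, but stayed under the 10 CPM minimum, and 29.4% of the genes were lower by this call. With the edgeR TMM factors in place of total reads, the median over all genes was 0.03, 8.81% of genes were higher and 22.99% lower, and the same 6 members were past the call.

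Klf1 stood at 448.6 CPM in E8.5 globin-high cells and 1.11 CPM in globin-low cells, a log2 ratio of 7.73. Cited4 was the most abundant of the 7, at 855.7 and 11.1 CPM, a log2 ratio of 6.15. Trim10 gave 232.6 and 0.0198 CPM (7.84), and Hemgn 126.1 and 0.162 CPM (6.77). Of these, Klf1, Trim10 and Hemgn were at or near 0 in most globin-low cells. Nfe2 had 237.1 CPM in globin-high and 27.3 CPM in globin-low cells, a log2 ratio of 3.07, and Zfpm1 had 60.6 and 6.77 CPM, a log2 ratio of 2.99. Bcl11a had 0.214 CPM in globin-high and 5.10 CPM in globin-low cells, a log2 ratio of -2.33.

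Most E8.5 globin-high and globin-low cells came from different plates, so the ratios were also taken within a plate. Plate 5 was the E8.5 plate with at least 5 cells of each kind, with 9 globin-high and 45 globin-low cells, and every one of its globin-high cells clustered as megakaryocyte-like. There, the log2 ratio was 4.55 for Klf1, 4.796 for Trim10, 3.63 for Cited4 and 1.15 for Zfpm1. It was 0.49 for Nfe2, under the 2-fold call. Hemgn had 3 and 9 reads there, too few for a ratio to be read. With globin-low widened to under 1000 CPM, plate 2 (80 and 6 cells) gave 0.78 for Nfe2, again under 2-fold, and 3.80 for Klf1, 4.05 for Cited4, 5.34 for Trim10 and 1.36 for Zfpm1. Hemgn had 20.03 CPM in the globin-high cells of plate 2 and no read in the 6 others. On plate 1 (74 and 16 cells) all 6 were past 2-fold, Nfe2 included at 7.07. The cells set against the globin-high cells differed in kind between the plates. None of the 16 on plate 1 clustered in a blood or haematoendothelial class, 3 of the 6 on plate 2 were blood progenitor-like, and 34 of the 45 globin-low cells of plate 5 were myeloid-like and 10 megakaryocyte-like. Plate and kind of cell cannot be told apart in these values of Nfe2.

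At E7.5 the same 6 genes were at least 2-fold higher in globin-high cells, against 7.48% of 9658 genes, and Bcl11a was at least 2-fold lower, against 29.9%. With TMM factors, 13.8% of genes were higher and 21.3% lower, and the median over all genes moved from -0.44 to 0.01. The log2 ratio of Bcl11a was then -0.90 and no longer past the call, while the 6 others were. Klf1 stood at 384.4 and 0.636 CPM, a log2 ratio of 7.88, and Cited4 at 640.5 and 1.28 CPM (8.14). Trim10 had 92.3 and 0.00665 CPM (6.53), and Hemgn 84.05 and 0.0333 CPM (6.36). Nfe2 had 195.3 and 7.44 CPM, a log2 ratio of 4.54. Zfpm1 had 43.1 and 6.75 CPM (2.51), the smallest of the 6. These values rest on lane plate 1, where 53 globin-high cells could be set against 29 globin-low cells of the same plate. Within that plate the log2 ratio was 8.54 for Klf1, 7.80 for Cited4, 6.36 for Trim10, 5.36 for Hemgn and 3.69 for Zfpm1. Nfe2 dropped to 1.95, since the globin-low cells of this plate held 51.2 CPM of it against 201.04 CPM in the globin-high cells. Bcl11a had 6.91 CPM in globin-high and 82.1 CPM in globin-low cells of the plate, a log2 ratio of -3.39, larger than the -1.34 (6.64 and 18.3 CPM) over all E7.5 plates.

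Per kilobase of exon, the order of levels in globin-high cells was similar at both stages. At E8.5, Cited4 had 685.1 CPM per kb, Klf1 293.2, Trim10 103.6, Nfe2 79.4, Hemgn 50.2, Zfpm1 17.3 and Bcl11a 0.0162. At E7.5, Nfe2 stood above Trim10, at 65.4 against 41.1 CPM per kb, and the other genes kept their place, from 512.8 for Cited4 to 0.504 for Bcl11a. After thinning, 5 of the genes were read in at least 85% of globin-high cells of either stage. At E8.5 a read was found in 88.6% of cells for Klf1 (82.8 to 93.01), 98.2% for Nfe2, 89.8% for Zfpm1, 99.4% for Cited4 and 88.02% for Trim10. Hemgn was the exception, at 58.7% (50.8 to 66.2), and split by plate, with 93.2% on plate 1 and 35% on plate 2. In all, 6 of the 7 genes were read in at least 50% of globin-high cells at E8.5, as were 57.8% of the 9804 genes.

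The second question was at which globin level each gene appeared. Cells were placed in bins of globin CPM by factors of 10, and onset was taken as the first bin of at least 10 cells in which at least 50% of thinned cells had a read. Over the pooled E8.5 plates the genes fell into 3 steps. Nfe2, Zfpm1 and Cited4 were past 50% at 1000 to 10000 CPM of globin (37 cells), Klf1 and Trim10 at 10000 to 100000 (85 cells), and Hemgn at 100000 and over (82 cells). With the E8.5 plates pooled, no member had its onset under 1000 CPM, while 34.6% of the genes higher in globin-high cells did. This count was not stable, as it became 3 at a share of 25% and 1, Nfe2, without plate 1 or without plate 3. On single plates the onset also came earlier. On plates 5 and 6, Nfe2 was past 50% already in cells without a globin read and Zfpm1 at 10 to 100 CPM, and on plate 5 Cited4 was past it in cells without a globin read. Of the cells without a globin read, 15 of 18 on plate 5 were myeloid-like and 23 of 29 on plate 6 haematoendothelial-like. These values come mostly from other kinds of cell and need not mark an earlier step of the red lineage. On plate 2, where bins of at least 10 cells began at 10000 CPM, all 6 had their onset at that bin except Hemgn, at 100000. Plate 2 gave 63 of the 85 cells between 10000 and 100000 CPM. On plate 1, 7 of its 10 cells in that bin had at least 6 of the 7 genes, and Bcl11a was read in none of the 85. Hemgn was thus past 50% in that bin on plate 1, so its later step was not seen on each plate. Of all genes higher in globin-high cells, 91 had their onset at 1000, 93 at 10000 and 52 at 100000 CPM, so none of the 3 steps was particular to the members.

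The shares behind these steps were as follows, in the bins starting at 100, 1000, 10000 and 100000 CPM of globin. Nfe2 was read in 46.7%, 89.2%, 96.5% and 100% of cells, and Zfpm1 in 31.1%, 81.1%, 92.9% and 86.6%. Cited4 was read in 26.7%, 72.97%, 98.8% and 100%. Klf1 lagged behind these, with 2.22%, 24.3%, 77.6% and 100%. Trim10 was later still in the second of these bins, at 4.44%, 8.11%, 76.5% and 100%. Hemgn came last with the plates pooled, at 0%, 13.5%, 30.6% and 87.8%.

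**Figure D2:**
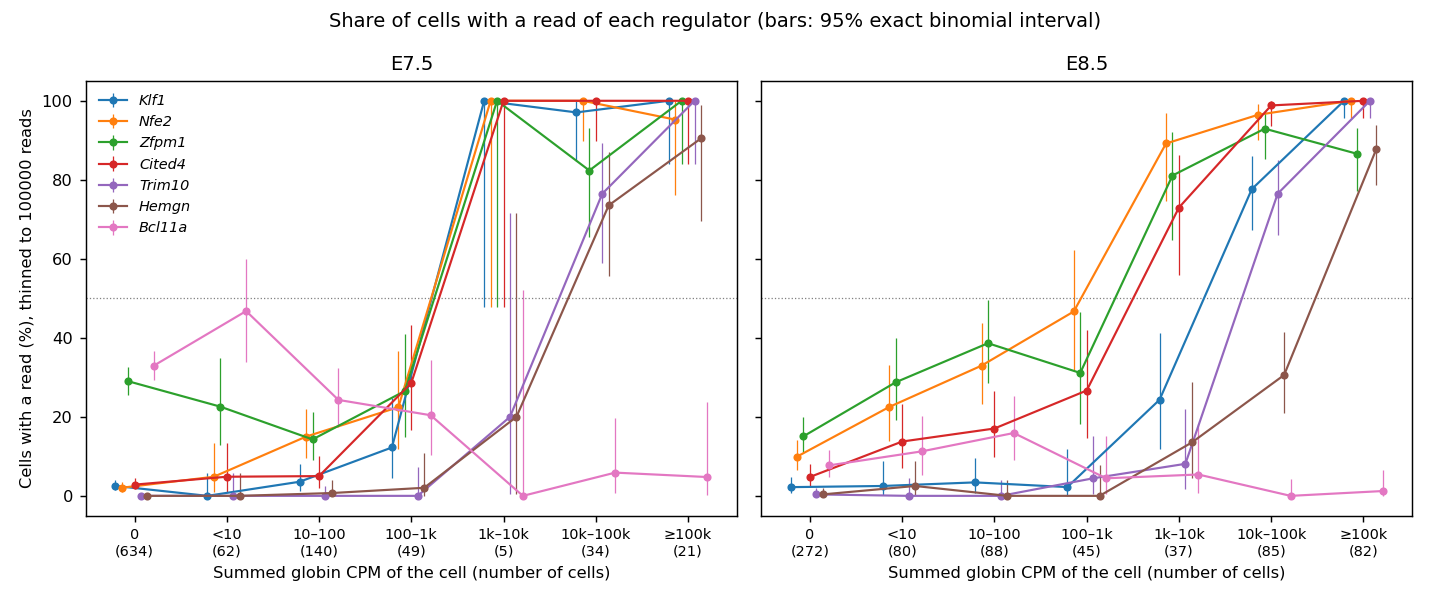
Percentage of cells with at least 1 read of each gene after thinning to 100000 reads, against the bin of summed globin CPM, for E7.5 and E8.5, with 95% exact binomial intervals as error bars. At E8.5, with plates pooled, Nfe2 passes 50% at 1000 CPM of globin, Klf1 at 10000 (77.6%) and Hemgn at 100000 (87.8%).

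Pooled levels gave nearly the same order. At E8.5, between 1000 and 10000 CPM of globin, Zfpm1 was at 93.1% of its highest bin and Nfe2 at 86.98%, Cited4 at 47.7%, Hemgn at 2.06%, Klf1 at 1.75% and Trim10 at 1.17%. Klf1 went from 10.996 CPM in that bin to 185.2 and 629.1 CPM in the next bins. Trim10 went from 3.65 to 117.9 and 311.2 CPM, and Hemgn from 4.17 to 14.6 and 202.5 CPM. Pooled over plates, the level of Nfe2 at E8.5 was lower in the top bin than in the one before. It stood at 84.9, 274.2, 315.3 and 183.6 CPM in the 4 bins from 100 CPM of globin upward. Haemoglobin genes took 22.2% of the reads in the top bin, and with them left out Nfe2 was 330.8 CPM in the bin from 10000 and 236.1 CPM in the top bin. The plates behind these bins differed, as plate 2 gave 63 of 85 cells in the former and plate 1 gave 64 of 82 in the latter. Nfe2 stood at 188.01 and 179.97 CPM on plate 1, and at 359.5 and 211.6 CPM on plate 2. At E7.5 it was higher in the top bin, at 266.5 against 160.2 CPM.

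**Figure D3:**
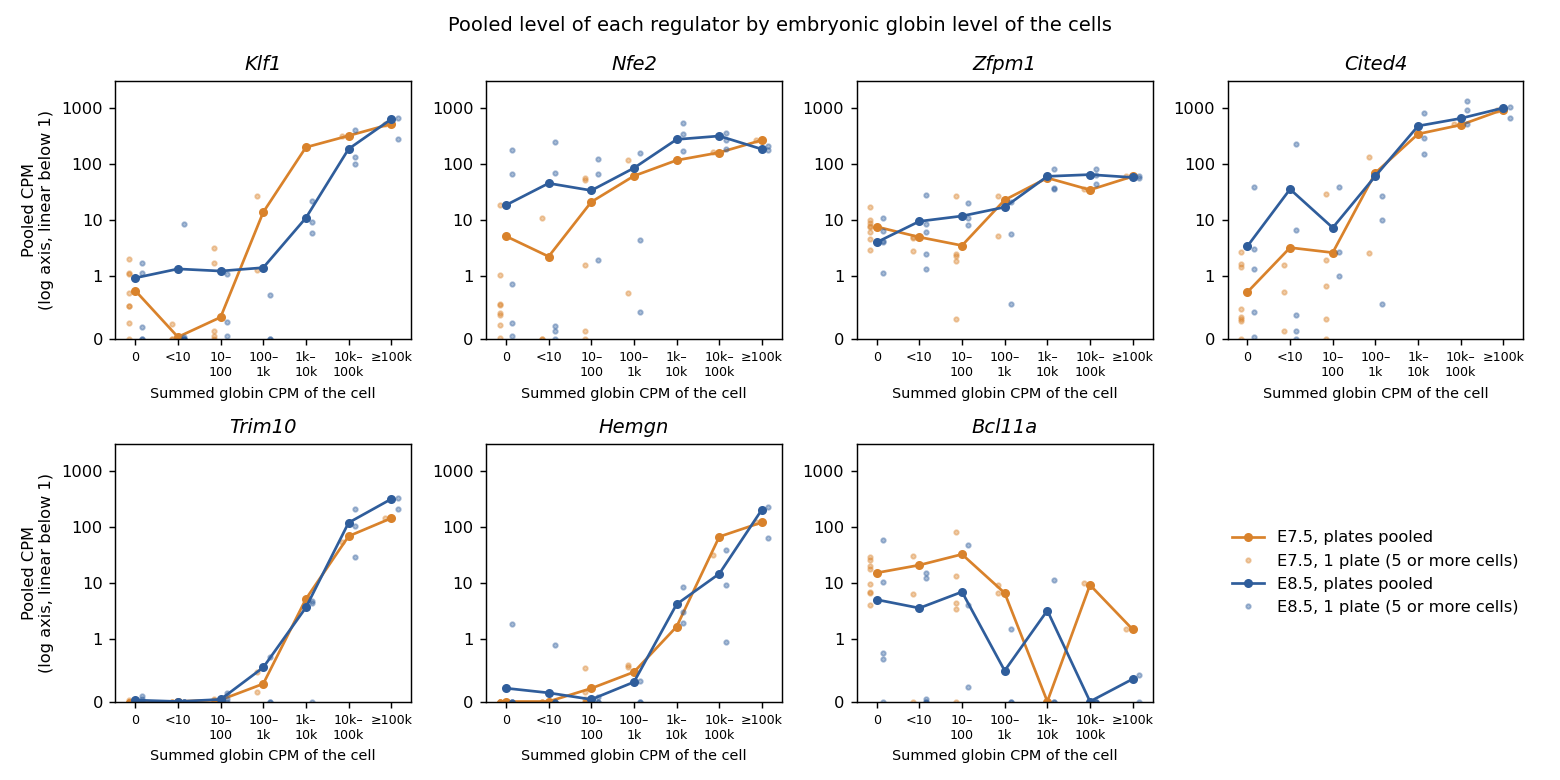
Pooled CPM of each gene (axis logarithmic above 1) in 7 bins of summed globin CPM, with lines for the pooled E7.5 (orange) and E8.5 (blue) cells and pale points for single plates with at least 5 cells in the bin. At E8.5, Nfe2 is highest between 10000 and 100000 CPM of globin (315.3 CPM, mostly plate 2) and lower above it (183.6 CPM, mostly plate 1), while Klf1 reaches 629.1 CPM and Hemgn 202.5 CPM in the last bin.

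The 37 cells of the bin from 1000 to 10000 CPM were a mixture. Plate 5 gave 18 of them, all megakaryocyte-like, plate 6 gave 12 and plate 2 gave 5. On plate 5, Cited4 was the highest of the genes, at 805.2 CPM, with 167.7 CPM of Nfe2, 81.4 of Zfpm1 and 5.82 of Klf1. On plate 6, Nfe2 had 338.1 CPM, Cited4 295.7, Zfpm1 35.6 and Klf1 22.2. On plate 2, Nfe2 had 534.6 CPM and Cited4 152.2. The summed level of the megakaryocyte markers was 1839 CPM in this bin, against 389.7 CPM in the next and 58.9 CPM in the last, and the endothelial markers went from 551.6 to 99.4 and 10.2 CPM over the same bins. Without the megakaryocyte-like cells, 19 cells remained, of which 84.2% had a thinned read of Nfe2, 68.4% of Zfpm1, 47.4% of Cited4, 31.6% of Klf1, 5.26% of Trim10 and 21.1% of Hemgn. The onset of Cited4 then moved to 10000 CPM, and the other onsets did not move.

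Within single cells of this bin, the early genes were mostly read without Klf1. Of the 37 cells, 25 had a read of Nfe2 and none of Klf1, 23 of Zfpm1 without Klf1 and 21 of Cited4 without Klf1. Trim10 and Hemgn without Klf1 occurred in 2 and 3 cells. Between 10000 and 100000 CPM of globin, 41 of 85 cells had Klf1 without Hemgn and 8 had Klf1 without Trim10, and 7 had Trim10 without Klf1. The median number of the 7 genes read per thinned cell was 3, 5 and 6 in the 3 upper bins. At least 6 genes were read together in 1 of 37, 21 of 85 and 62 of 82 cells. These are thinned cells, and a gene without a read may have been missed at this depth.

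With the E7.5 plates pooled, all 6 genes had their onset by share at 10000 CPM, but on lane plate 1 alone Nfe2 was past 50% at 10 to 100 CPM (51.7% of 29 cells). Of these 29 cells, 16 were myeloid-like and 7 haematoendothelial-like. The other 5 had their onset at 10000 CPM there too, and over all plates the bin from 1000 to 10000 CPM held 5 cells, under the minimum. In those 5 cells Klf1 stood at 198.5 CPM, against 10.996 CPM at E8.5, and the former is 38.4% of its highest E7.5 bin. On lane plate 1, which gave 3 of the 5, the single cells had 153.8, 208.05 and 404.6 CPM of Klf1. Trim10 and Hemgn were low in the same 5 cells, at 5.18 and 1.66 CPM, or 3.65% and 1.39% of their highest bin. As a percentage of the highest bin, Klf1 and Trim10 thus stood apart in these 5 cells, and at E8.5 they stood at 1.75% and 1.17%. By reads in single cells they differed at E8.5 too, with Klf1 without Trim10 in 8 of 37 cells and the reverse in 2. Of the E7.5 cells in this bin 3 were erythroid-like, while 18 of the E8.5 cells were megakaryocyte-like. No E7.5 cell of any bin was in the megakaryocyte-like class. The 3 erythroid-like cells, on lane plate 1, had 442.8 CPM of the megakaryocyte markers, against 1839 CPM in the E8.5 bin. The class names alone thus do not set the kinds of cell of the 2 stages apart.

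The third comparison set E8.5 against E7.5 globin-high cells. Trim10 was the 1 gene of the 7 past 2-fold higher, at 232.6 against 92.3 CPM, a log2 ratio of 1.32, while 8.65% of 8160 genes were higher and 10.3% lower by this call. Hemgn had a log2 ratio of 0.58, Zfpm1 0.48, Cited4 0.42, Nfe2 0.28 and Klf1 0.22, against a median of 0.18 over all genes. TMM factors were taken on plates with at least 5 globin-high cells. On those plates Trim10 was at 1.48 and Hemgn at 1.00, just past the call, by total reads. With TMM factors they were at 1.32 and 0.84, and Klf1 at 0.04. The median over all genes was then 0.00, and 6.05% of genes were higher and 13.2% lower. Over all globin-high cells by total reads, Bcl11a was past 2-fold lower, at 0.214 against 6.64 CPM (-2.65), under the 10 CPM minimum and from 5.45% of the E7.5 cells. Protocol may go with stage, and its part was not tested. The paper describes some cells as profiled for RNA, DNA methylation and chromatin accessibility together, and others for RNA only. Its cell number for the former equals that of all E8.5 cells before filtering, and for the latter that of all E7.5 cells. Per its methods, most cells of the former kind were treated with GpC methylase before freezing. The paper's text does not name the plates of each kind. Stage and plate cannot be told apart here, since 1 plate gave nearly all E7.5 cells, and the genotype of the cells is not known. Leaving out that plate, lane plate 1, left 2 E7.5 cells and turned the log2 ratio of Trim10 to -0.36. Leaving out E8.5 plate 1 left no member past 2-fold higher and 3 lower, and leaving out E8.5 plate 2, or the 2 cells of E7.5 lane plate 4, left 2 higher.

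The 2 main E8.5 plates differed from each other as much as the stages did. Against the E7.5 cells, Klf1 was at a log2 ratio of 0.71 on plate 1 and -1.22 on plate 2, Hemgn at 1.19 and -2.02, and Trim10 at 1.74 and 0.41. On plate 5 (9 cells) Trim10 was at -1.65. Plate 1 had 64 cells at 100000 CPM or more and plate 2 had 17. Within a bin the plates also differed, though the bins are wide and haemoglobin genes took more of the reads on plate 1, at 7.36% against 4.09% between 10000 and 100000 CPM and 22.7% against 19.2% in the top bin. The labels do not give the genotype or gate of the cells, so either may go with plate and cannot be told apart from it. The paper lists Klf1 and Hemgn among the genes that differ in Tet-TKO blood progenitors and erythroid cells. The part of globin, genotype or gate in these differences was not tested. In the top bin, Hemgn stood at 219.9 CPM on plate 1 and 63.4 CPM on plate 2, a log2 ratio of 1.78, Klf1 at 669.9 and 276.7 CPM (1.27), Trim10 at 326.9 and 203.6 CPM (0.68) and Cited4 at 1052.6 and 647.1 CPM (0.70). Nfe2 and Zfpm1 differed little there, at 179.97 and 211.6 CPM and at 57.1 and 61.6 CPM. Between 10000 and 100000 CPM (10 and 63 cells), the ratio was 1.97 for Hemgn (38.3 and 9.03 CPM), 1.54 for Klf1 (395.3 and 135.3 CPM) and 1.01 for Trim10 (206.99 and 102.5 CPM). Nfe2 was lower on plate 1 in this bin, at 188.01 against 359.5 CPM (-0.93).

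**Figure D4:**
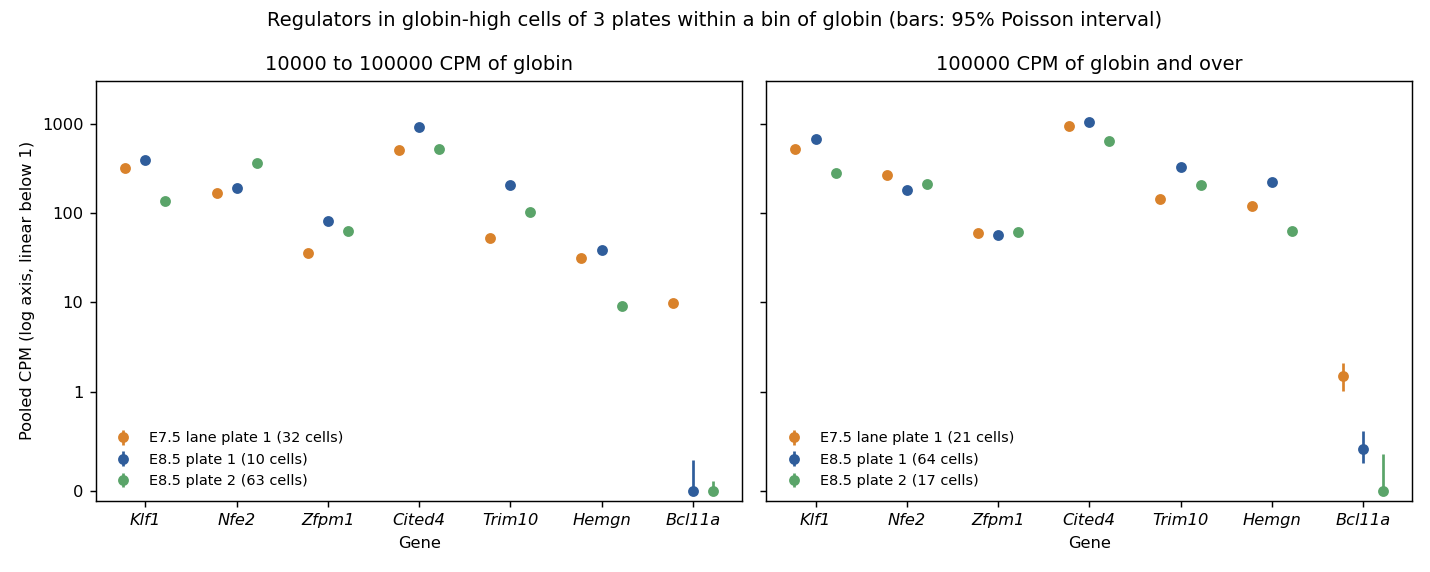
Pooled CPM of each gene (axis logarithmic above 1) on E8.5 plates 1 and 2 and E7.5 lane plate 1 in the bins of 10000 to 100000 and at least 100000 CPM of globin, with 95% exact Poisson intervals as bars. Within the same bin, Hemgn differs most between the E8.5 plates, at 219.9 and 63.4 CPM in the upper bin, and Zfpm1 least, at 57.1 and 61.6 CPM.

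Comparing the stages within a bin of globin gave other values for the same genes. Between 10000 and 100000 CPM (85 E8.5 and 34 E7.5 cells), Hemgn was lower at E8.5, at 14.6 against 66.4 CPM, a log2 ratio of -2.11, and Klf1 at 185.2 against 318.8 CPM (-0.78). The E7.5 value of Hemgn turned on 2 cells of lane plate 4, which had 589.2 CPM, while the 32 cells of lane plate 1 had 31.7 CPM. Nfe2 was higher, at 315.3 against 160.2 CPM (0.97), and so was Trim10, at 117.9 against 67.8 CPM (0.79), with 52.4 CPM on lane plate 1. In the top bin (82 and 21 cells), Trim10 was at 311.2 against 141.8 CPM (1.13), Hemgn at 202.5 against 119.7 CPM (0.75), Klf1 at 629.1 against 517.3 CPM (0.28) and Nfe2 at 183.6 against 266.5 CPM (-0.53). Trim10 was the gene that was higher at E8.5 in both bins by at least 0.79 on the log2 scale. Hemgn, Klf1 and Nfe2 had log2 ratios of opposite sign in these bins, and so no single direction between the stages holds for them.

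Clustering of all cells, with classes named from marker lists, placed the genes in cell types beyond the red lineage. Since the clusters were made from the same counts, the class levels are a description. Erythroid-like cells were 95 at E8.5, 71 of them on plate 1, and 64 at E7.5, 60 of them on lane plate 1. At E8.5 they had 980.2 CPM of Cited4, 594.5 of Klf1, 300.9 of Trim10, 190.2 of Nfe2, 177.9 of Hemgn and 62.2 of Zfpm1. The 92 blood progenitor-like cells of E8.5, 65 of them on plate 2 and 23 on plate 6, were named from 5 of 6 markers, none of them among the cluster's 10 leading genes, and had more Nfe2 (367.2 CPM), less Cited4 (389.4 CPM) and much less Klf1 (79.4 CPM), Trim10 (52.5 CPM) and Hemgn (6.26 CPM). The plates of this class differed, with 98.9 CPM of Klf1 and 72.5 of Trim10 on plate 2 but 10.6 and 2.08 on plate 6. Megakaryocyte-like cells, 41 on plate 5, shared Cited4 (758.6 CPM), Nfe2 (233.96 CPM) and Zfpm1 (66.5 CPM) with the erythroid-like cells. They had 20.4 CPM of Klf1, 6.82 of Trim10 and 1.80 of Hemgn. Nfe2 and Zfpm1 are known to act in megakaryocytes as well as red cells. A class of this name was not found at a coarser clustering, and each of these classes lay mostly on 1 or 2 plates, so class and plate cannot be told apart.

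**Figure D5:**
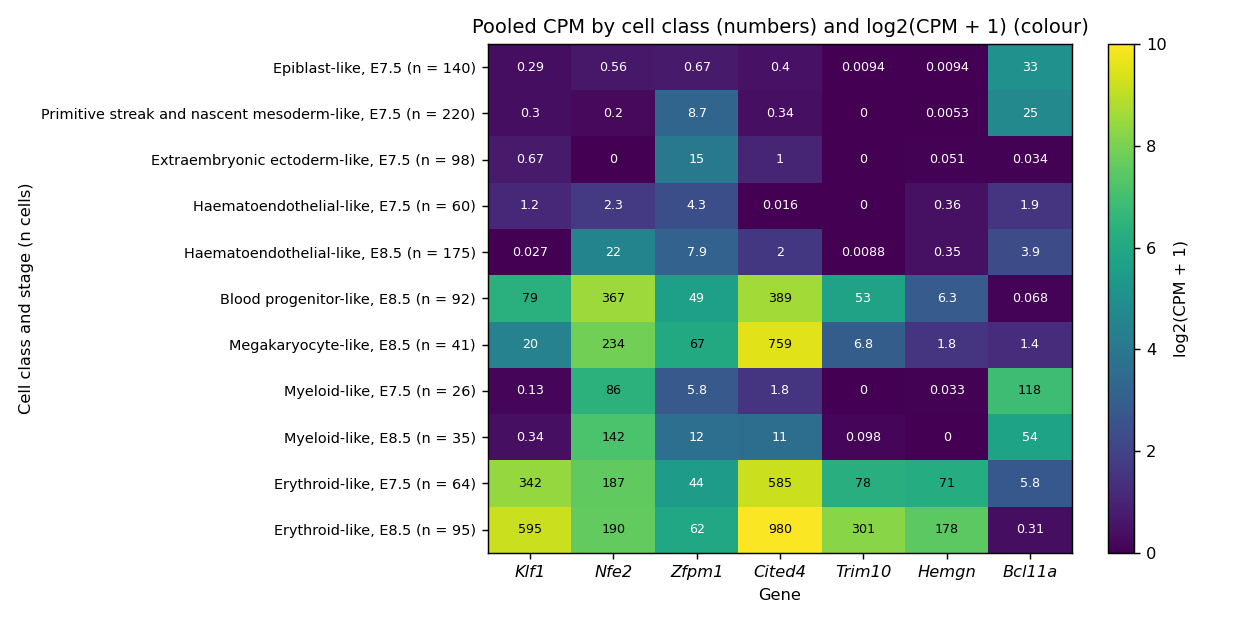
Heat map of the pooled level of each gene (columns) in the cell classes in which the genes were read most, with those of the early embryo for contrast (rows, with stage and number of cells), showing CPM as numbers and log2(CPM + 1) as colour. Cited4, Nfe2 and Zfpm1 are high in both erythroid-like and megakaryocyte-like cells of E8.5, Klf1 is at 594.5 and 20.4 CPM in these classes, and Bcl11a is highest in myeloid-like cells.

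Bcl11a was low in erythroid-like cells and highest in myeloid-like cells, at 118.3 CPM in 26 cells of E7.5 and 54.2 CPM in 35 cells of E8.5, and a read was found in 88.5% and 88.6% of them. Of these cells, 20 lay on lane plate 1 and 34 on E8.5 plate 5, the plates where the globin-low cells had 82.1 and 39.1 CPM of Bcl11a. Myeloid-like cells also had Nfe2, at 85.8 CPM in E7.5 cells and 141.65 CPM in E8.5 cells. Bcl11a was also read in cells of the early embryo proper. Epiblast-like cells of E7.5 (140 cells) had 32.6 CPM of Bcl11a, with 15.7 to 46.3 CPM over 7 plates, and primitive streak-like cells (220 cells) had 24.9 CPM. The 95 erythroid-like cells of E8.5 had 0.31 CPM and the 92 blood progenitor-like cells 0.0683 CPM. An antisense gene shares some exon bases with Bcl11a, and whether the counting used strand is not given in the sources used here, so reads of that gene cannot be told apart from those of Bcl11a over these bases.

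Zfpm1 also had a source outside blood, with 15.3 CPM in the 98 extraembryonic ectoderm-like cells of E7.5. Nfe2 and Zfpm1 stood at 21.5 and 7.90 CPM in the haematoendothelial-like cells of E8.5, where Klf1 was at 0.03 CPM. This level of Nfe2 rested on plate 6, at 52.96 CPM, with 1.24 CPM on plate 4.

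Other genes of the red cell programme gave a frame for these values. Of 19 erythroid transcription factors and partners that passed the minimum at E8.5, 10 were at least 2-fold higher in globin-high cells and 1 lower, with a median log2 ratio of 1.02. Gata1, the central erythroid GATA factor, had a log2 ratio of 4.81, and Gfi1b, a transcriptional repressor that acts within the erythroid and megakaryocyte lineages, 2.93. Gata2, a factor of earlier progenitors, had -1.76. Klf1, Cited4, Trim10 and Hemgn thus had ratios above that of Gata1. All 16 erythroid effector genes that passed were higher, with a median of 5.84, and the lowest was Tfrc (the transferrin receptor, 2.18). At E7.5, 12 of 19 factors and 16 of 16 effectors were higher. Between the stages, 1 of 18 factors and 6 of 16 effectors were higher at E8.5. Of the factors, 10 of 20 had their onset under 1000 CPM with the E8.5 plates pooled, as did 4 of 17 effectors. Unlike the 34.6% given above, the 20 factors were not limited to genes higher in globin-high cells. Of the 10 factors, Tal1, Cbfa2t3 and Runx1 were past the 2-fold call, and the others, Gata2 and Klf3 among them, were not. The count therefore gives no order of onset against the members.

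Close relatives of the members behaved differently in globin-high cells. Of 6 relatives that passed the minimum at E8.5, 1 was higher and 4 were lower, with a median log2 ratio of -1.68. Cited2, a relative of Cited4, was the one higher, at 827.6 against 121.1 CPM (2.76). Cited1 was lower (-4.06), and so were Klf2 (-2.27) and Klf6 (-2.15), relatives of Klf1. Nfe2l2, a relative of Nfe2, had 0.42. Markers of other cell types that the gate could hold were lower in E8.5 globin-high cells, at 6 of 6 endothelial genes (median -5.48) and 4 of 4 myeloid genes (median -3.78). Of 3 megakaryocyte markers, 1 was lower. At E7.5, 5 of 5 megakaryocyte markers were higher in globin-high cells, Pf4 among them with a log2 ratio of 4.52, beside the values of Nfe2, Zfpm1 and Cited4 at that stage. Of the 2 myeloid genes that passed at E7.5, Spi1 was higher, at 34.9 against 9.78 CPM (1.74), and Coro1a had 0.86. The part of these cells in the results was not tested.

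Over the 19 plates, the genes whose pooled log2 level was most like that of each member were red cell genes for most of them. Among 12230 genes, the highest Pearson r with Klf1 was that of Alas2 (0.984), the first enzyme of haem synthesis in red cells, and Hbb-bs was among the 3 highest (0.973). The 3 highest for Trim10 included Hbb-bs (0.986) and Epb42 (0.984), and for Hemgn they were led by Slc4a1 (0.982), the red cell anion exchanger, and Rhag (0.969). For Nfe2 the 3 highest were Mfsd2b (0.978), Gfi1b (0.976) and Tspan32 (0.966). Cited4 went with Hbb-bt (0.960), Redrum (0.953) and Gja6 (0.949), and Zfpm1 with Gm6768 (0.931), Frrs1 (0.930) and Ncoa4 (0.929). Bcl11a had no near match, its highest being Ttc39b at 0.837. Among the members, Klf1 had an r of 0.975 with Trim10, 0.943 with Hemgn, 0.770 with Nfe2 and -0.25 with Bcl11a. The plates share their sort and depth, and few of them hold globin-high cells, so these values describe the same handful of plates.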

How the data were processed

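Single cells of E7.5 and E8.5 mouse embryos were read out by Smart-seq2 with 75 bp single-end reads. Per the study's methods, the authors aligned reads with HISAT2 2.1.0 to GRCm38 and counted them over Ensembl genes with featureCounts, and the deposited table holds raw read counts, without molecular identifiers. The strand and multimapping settings are not given in the sources used here. All 1824 columns were matched to samples by their labels, and 55141 of 55487 identifiers to a symbol.

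Cells with at least 100000 reads, at most 10% mitochondrial and at most 20% ribosomal protein reads were kept. Reads were pooled over cells, scaled to CPM of all counted reads and compared as log2(CPM + 1), since 1 sample per stage and unnamed embryos allow no test. A 2-fold difference was the call, over genes with at least 10 CPM in either group. Intervals are 95% exact Poisson or exact binomial (Clopper-Pearson) intervals and cover counting error only, as reads are not independent molecules. A count of 0 allows up to 3 counts of the total. Shares of cells were taken after thinning each cell to 100000 reads. No doublet caller was run, and leaving out the top 2% of cells by reads was an alternative. Clusters were made with scanpy 1.11.5 and named from marker lists. The genes whose plate pattern was most like each member were the 3 with the highest Pearson r, and list genes were named as the 3 with the largest and the 3 with the smallest ratio. Other tools were numpy 2.4.6, scipy 1.17.1, pandas 2.3.3 and matplotlib 3.10.9, with R 4.3.3, edgeR 4.0.16 and DESeq2 1.42.0 for alternative scaling factors. These factors were taken on plates with at least 5 cells of a group. On simulated counts for 9491 genes, with a set spread between cells, 198 of 200 changed genes and 0 of 9291 unchanged genes were called. How often unchanged genes are called between groups that lie on different plates was not tested. Gene positions came from GENCODE M21 and promoter sequences from RefSeq (GRCm38.p6), which gave one for 6 of the 7 genes. The members and the gene lists were chosen with earlier results of these data known. The values of 1 gene are not reported here.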

Additional observations from a re-analysis of the deposited data

Results flagged for a closer look

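The 4 named E7.5 embryos were compared with each other for each of the 7 genes, by pooled CPM and by the share of thinned cells with a read, 14 sets of 4 values in all. In 3 sets 1 embryo lay far from the other 3. Nfe2 was read in 2.13% of the cells of embryo 2, Cited4 in 7.69% of the cells of embryo 4, and the pooled level of Trim10 was 0.0286 CPM in embryo 1 and 0 in the others. Each of these values rests on few reads or cells. The rule marks about 1 in 20 sets by chance only where values are continuous, and this rate does not hold for tied counts near 0. Trim10 had 2 reads in 1 cell of embryo 1, and any single value above 0 would have been marked. The 3 sets are therefore not read against that rate.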

How the results depend on the processing

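Members higher in globin-high cells numbered 6 at E7.5 and E8.5 under every alternative run, including plates left out 1 at a time, other scalings, limits on cells, pseudocounts, globin limits and a 4-fold call, except at E8.5 with the median over plates, which gave 4 (plate 5 alone, with Nfe2 at 0.49 and Hemgn at 0.56 on the log2 scale) and, with globin-low under 1000 CPM, a choice made after seeing the data, 5 (3 plates, with Nfe2 at 0.78). The count of members higher at E8.5 than at E7.5 (1) became 0 with the mean of the cells' CPM, 0 at a 4-fold call and 0 in cells of 10000 to 100000 CPM of globin, a restriction chosen after seeing the data. It ranged from 0 to 3 when plates were left out, with 3 without E7.5 lane plate 1, where Trim10 reversed to -0.36 on the 2 cells left (range -0.36 to 1.66 when plates were left out). The count of members lower (1) became 0 with a pseudocount of 10 CPM, 0 with globin-high at 100000 CPM, 2 in cells of 10000 to 100000 CPM and 0 in cells of 100000 CPM and over, and ranged from 1 to 3 when plates were left out. The count of members with an onset under 1000 CPM of globin (0) became 3 at a share of 25%, 1 by level and 1 with narrower bins. The 1 by level was Bcl11a, which was lower in globin-high cells, so it was no onset with globin. The count ranged from 0 to 1 when plates were left out, with Nfe2 moving without E8.5 plate 1 or plate 3. The cause was not tested. The 6 members read in at least 50% of E8.5 globin-high cells became 5 without plate 1, where Hemgn was at 31.2%. Of the values of single genes, 83.1% stayed within the spread between plates, the counting interval or the same onset, 16.8% moved and 1 reversed. No paired analysis was possible because no comparison of plates shares replicate numbers that mark a common source, and none rests on a test. Few plates hold globin-high cells, and at 100000 reads a cell can miss a gene of some 10 CPM.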
